A study of Mus musculus with 7 samples.

Results

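Polycomb proteins form the chromatin complexes PRC2 and PRC1, and 10 genes of these complexes were followed in whole mouse spleens: Ezh1, Ezh2, Eed, Suz12 and Jarid2 for PRC2, and Bmi1, Ring1, Rnf2, Cbx2 and Cbx7 for PRC1. They were chosen by gene symbol from the 24062 genes counted, and all 10 were among the 15188 genes with enough counts to test. RNA was sequenced from 3 enlarged spleens of Vav1-iCre;Brca1 F22-24/F22-24 mice (mutant) and from 4 spleens of C57BL6 mice (Brca1+/+, wild type), all aged 2 to 3 months. The Brca1 allele of the mutants is flanked by recombination sites around exons 22 to 24, and Vav1 regulatory sequence drives the iCre recombinase in blood cells, so stromal cells of these spleens are outside its main range. Spleens with iCre alone or with the unrecombined allele were not analysed here, and a strain is named for the wild type only. The recombinase, the allele, the enlargement and any strain difference therefore cannot be told apart.

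PRC2 places methyl groups on histone H3, through EZH2 or its paralog EZH1 held in a core with EED and SUZ12. PRC1 places ubiquitin on histone H2A through RING1 or RNF2 (also called RING1A and RING1B), with a PCGF protein such as BMI1, and its chromobox (CBX) subunits bind the mark left by PRC2. Both complexes keep developmental genes silent, and in blood they are known for their roles in stem cell self-renewal, B and T cell development and leukaemia.

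The stretches just upstream of 4 of these genes are shown because Ezh2 and Suz12 stood higher in the mutant spleens while Ezh1 and Cbx7 stood lower. Each is the 250 bases before the RefSeq transcription start in GRCm38.p6, written 5′ to 3′ on the strand of the gene, in lower case with matches to an E2F motif in capitals. Ezh2 lies on the minus strand (chr6:47595031-47595280), Ezh1 on the minus strand (chr11:101226464-101226713), Suz12 on the plus strand (chr11:79992856-79993105) and Cbx7 on the minus strand (chr15:79932647-79932896).
Ezh2: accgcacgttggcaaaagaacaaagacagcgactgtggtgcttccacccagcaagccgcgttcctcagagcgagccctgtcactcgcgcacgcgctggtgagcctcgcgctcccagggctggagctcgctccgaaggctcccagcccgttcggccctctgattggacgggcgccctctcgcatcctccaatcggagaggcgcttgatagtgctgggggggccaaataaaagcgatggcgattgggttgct
Ezh1: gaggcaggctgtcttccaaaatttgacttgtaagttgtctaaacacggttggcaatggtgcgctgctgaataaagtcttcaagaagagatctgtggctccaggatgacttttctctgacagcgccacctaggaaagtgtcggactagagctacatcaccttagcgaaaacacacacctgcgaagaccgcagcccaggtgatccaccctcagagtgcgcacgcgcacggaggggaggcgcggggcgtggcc
Suz12: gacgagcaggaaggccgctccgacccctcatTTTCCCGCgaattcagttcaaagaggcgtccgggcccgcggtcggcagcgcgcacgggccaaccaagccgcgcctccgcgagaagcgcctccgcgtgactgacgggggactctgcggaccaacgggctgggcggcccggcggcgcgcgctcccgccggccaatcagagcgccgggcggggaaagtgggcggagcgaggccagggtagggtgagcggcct
Cbx7: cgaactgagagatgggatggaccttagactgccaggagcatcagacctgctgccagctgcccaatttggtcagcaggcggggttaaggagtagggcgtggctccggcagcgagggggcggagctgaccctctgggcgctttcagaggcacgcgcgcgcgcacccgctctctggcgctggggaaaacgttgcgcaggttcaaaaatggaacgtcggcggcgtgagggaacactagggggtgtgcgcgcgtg

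E2F proteins are transcription factors that act when cells enter S phase. The motif was searched on both strands as 4 words, TTTCCCGC, TTTCGCGC, TTTGCCGC and TTTGGCGC. Suz12 held 1 match, TTTCCCGC, on the plus strand at 219 to 212 bases before its start (chr11:79992887-79992894), and it was the only match in the windows of the 9 members with a window in the promoter table used. Cbx2, the member with the largest increase, had no window and was not searched. Of all 32851 windows of that length, 1.86% held a match. A match in letters is a description and not a binding site, and a window without one says only that these letters are not in it.

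The libraries held 26889712 to 63612532 counts. Levels are counts relative to library size with TMM scaling (CPM), each summarised as mean ± SD over the libraries (n = 3 for mutant, n = 4 for wild type). Fold changes on the log2 scale compare mutant with wild type and carry a standard error (SE), and adjusted p-values come from edgeR's quasi-likelihood test over all 15188 genes. The labels give no matching of the animals, so the main test treats them as unmatched. Each p-value sets a group difference against the spread among these spleens only. Brca1 itself stood at 42.7 to 67.6 CPM in mutant spleens, against 15.7 to 72.8 CPM in wild type (log2 fold change 0.44, SE 0.51, adjusted p = 0.49, edgeR), and counts summed over the gene cannot show a loss of exons 22 to 24. The defining markers of splenic B cells were nearly gone from the mutant libraries: all 10 listed genes fell, with a summed level of 43.1 to 243 CPM against 4397 to 5857 CPM in wild type. Wild-type 2 carried 10714 CPM of pancreas and fat genes, against 8.66 to 375 CPM in the other 6 libraries.

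Of the 10 Polycomb genes, 5 rose in the mutant spleens (Cbx2, Ezh2, Suz12, Bmi1 and Eed), 4 fell (Cbx7, Ezh1, Ring1 and Jarid2) and Rnf2 was not called. Over all genes tested, 57.4% were called, 28.5% higher and 28.9% lower, so a call as such is common in this comparison. The median log2 fold change of the 10 was 0.29, beside -0.02 over all genes. The groups did not overlap for 9 of the 10, beside 61.7% of all genes: mutants lay above for 5 (29.2% of all genes) and below for 4 (32.6%). The changes went from a 4.79-fold increase of Cbx2 to a 3.35-fold decrease of Cbx7, and the members of a paralog pair stood at opposite ends. In whole tissue, fewer cells of a type and less RNA per cell cannot be told apart.

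**Figure D1:**
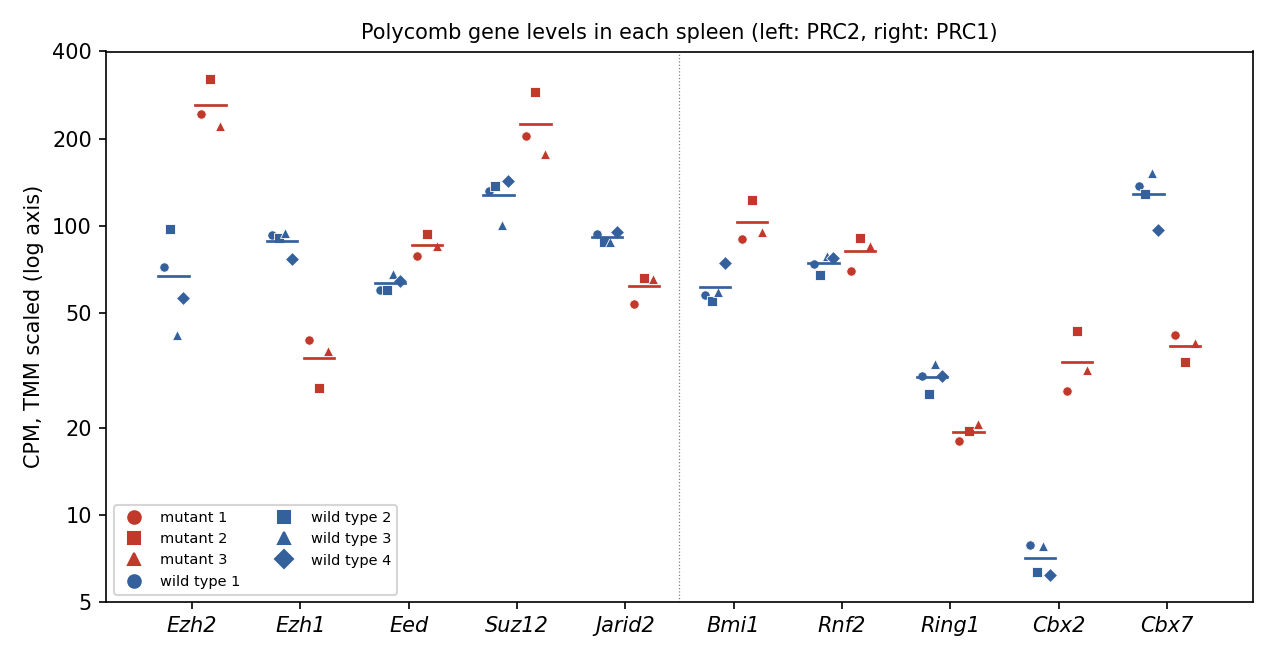
Level of each Polycomb gene in each spleen in CPM on a log axis; red symbols are the 3 mutant and blue symbols the 4 wild-type libraries, the symbol shape gives the library number and the bars are group means. Ezh2 and Cbx2 lie higher in every mutant library and Ezh1 and Cbx7 lower, while the groups overlap for Rnf2 only.

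The catalytic subunits of PRC2 moved in opposite directions. Ezh2 (chromosome 6, 47530274 to 47595030, minus strand, mm10), the methyltransferase most active in dividing cells, stood at 243, 322 and 221 CPM in mutants 1 to 3 and at 71.9, 97.6, 41.9 and 56.4 CPM in wild types 1 to 4. All 3 mutants were above all 4 wild types, and wild-type 3 was the lowest of the 7. Ezh2 rose from 66.9 ± 23.8 to 262 ± 53.2 CPM, or by 1.97 on the log2 scale (SE 0.29, adjusted p = 0.00112, edgeR). Ezh1 (chromosome 11, 101191115 to 101226450, minus strand), its paralog with weaker activity that is found also in resting cells, stood at 40.3, 27.5 and 36.8 CPM in mutant spleens, and at 92.8, 90.9, 94.6 and 76.8 CPM in the wild-type ones. Mutant 2, which had the highest Ezh2, had the lowest Ezh1. Ezh1 fell from 88.8 ± 8.11 to 34.9 ± 6.61 CPM, a log2 change of -1.35 (SE 0.17, adjusted p = 6.06e-04, edgeR).

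The core partners of both methyltransferases rose by less. Suz12 (chromosome 11, 79993106 to 80034123, plus strand), the scaffold of the core, stood at 204, 290 and 177 CPM in mutant spleens, and at 132, 137, 101 and 143 CPM in the wild-type ones. The lowest mutant was above the highest wild type by less than the wild-type spleens differed among themselves. Suz12 rose by 0.81 on the log2 scale (SE 0.21, adjusted p = 0.0121, edgeR). Eed (chromosome 7, 89954654 to 89980976, minus strand), the subunit that reads the methyl mark, stood at 78.6, 93.9 and 84.9 CPM in mutant spleens, and at 59.9, 60.1, 68.2 and 64.1 CPM in the wild-type ones. It had the smallest called change, 0.44 (SE 0.12, adjusted p = 0.0151, edgeR), and lost the call without mutant 2 (0.35, adjusted p = 0.0536, edgeR) or without wild-type 1 (0.41, adjusted p = 0.0572, edgeR). Over its 18 alternatives the adjusted p of Eed ran from 0.00411 to 0.31.

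Jarid2 (chromosome 13, 44730774 to 44921643, plus strand), an accessory protein that helps PRC2 reach its targets, went the other way from the core. It stood at 53.7, 66.0 and 65.3 CPM in mutant spleens, and at 93.7, 87.8, 88.1 and 95.2 CPM in the wild-type ones. The 4 wild-type values lay close together and every mutant was below them. Jarid2 fell by 0.56 on the log2 scale (SE 0.13, adjusted p = 0.00635, edgeR).

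Among PRC1 genes, the chromobox subunits changed most. Cbx2 (chromosome 11, 119023029 to 119031270, plus strand), a chromobox protein that compacts chromatin, was scarce in wild type at 7.88, 6.37, 7.81 and 6.22 CPM. In the mutants it stood at 26.8, 43.2 and 31.6 CPM, each far above that range. Cbx2 rose from 7.07 ± 0.899 to 33.9 ± 8.42 CPM, by 2.26 on the log2 scale (SE 0.21, adjusted p = 2.74e-04, edgeR), the largest increase of the 10. Cbx7 (chromosome 15, 79915807 to 79932646, minus strand), the chromobox protein known for supporting stem cell self-renewal, stood at 41.8, 33.7 and 39.4 CPM in mutant spleens, and at 137, 129, 152 and 96.2 CPM in the wild-type ones. Wild-type 4 was the lowest of its group and still above each mutant. Cbx7 fell from 128 ± 23.5 to 38.3 ± 4.19 CPM (-1.75, SE 0.19, adjusted p = 3.72e-04, edgeR), the largest decrease.

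Bmi1 (chromosome 2, 18677018 to 18686629, plus strand), the PCGF subunit that represses the Cdkn2a locus in blood stem cells, stood at 89.7, 123 and 95.2 CPM in mutant spleens, and at 57.7, 54.9, 58.9 and 74.1 CPM in the wild-type ones. Wild-type 4 was the closest to the mutants. Bmi1 rose by 0.74 on the log2 scale (SE 0.17, adjusted p = 0.00673, edgeR). The ubiquitin ligases of PRC1 parted. Ring1 (chromosome 17, 34020792 to 34024680, minus strand) stood at 18.0, 19.5 and 20.6 CPM in mutant spleens, and at 30.2, 26.3, 33.2 and 30.1 CPM in the wild-type ones, and fell by 0.63 (SE 0.15, adjusted p = 0.00803, edgeR). Rnf2 (chromosome 1, 151469406 to 151500823, minus strand), the main ligase in most tissues, stood at 69.6, 90.3 and 85.3 CPM in mutant spleens, and at 73.6, 67.7, 78.5 and 77.1 CPM in the wild-type ones. Mutant 1 lay inside the wild-type range and the other mutants above it. The log2 fold change of Rnf2 was 0.14 (SE 0.13, adjusted p = 0.404, edgeR), but 0.33 without mutant 1 (adjusted p = 0.0337, edgeR), the lowest of its 18 alternatives, which reached 0.826.

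Calls of Ezh1, Ezh2, Cbx2 and Cbx7 held their direction and stayed past the threshold under all 18 alternatives run. With library size alone as the scaling, which put the median gene at -0.26 and the share of higher genes among calls at 38.1% instead of 49.7%, 2 members rose and 4 fell, since Eed (0.19), Suz12 (0.57) and Bmi1 (0.48) were not called and Rnf2 changed sign (-0.11). Without wild-type 1 and wild-type 2, left out after seeing the data, the same 4 genes were the only members called, 2 higher and 2 lower, and the other 6 kept their directions.

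The balance within pairs of paralogs can be read inside 1 library, as the ratio of raw counts, with no scaling between libraries. For each gene pair only the difference between libraries is read, because the ratio itself also depends on gene length. Ezh2 had 6.04, 11.7 and 6.001 counts per count of Ezh1 in mutants 1 to 3, and 0.775, 1.07, 0.443 and 0.734 in wild types 1 to 4. The mean log2 ratio went from -0.47 ± 0.53 in wild type to 2.91 ± 0.55 in the mutants (n = 4 and 3), a 10.4-fold shift. Cbx2 had 0.642, 1.28 and 0.802 counts per count of Cbx7 in mutant spleens against 0.0575, 0.0495, 0.0515 and 0.0646 in wild type, a 15.7-fold shift. The shift was 1.69-fold for Rnf2 over Ring1, whose log2 ratio was 2.07 ± 0.13 in the mutants and 1.31 ± 0.06 in wild type. For Bmi1 over Pcgf2, a PCGF paralog counted at 5.70 ± 0.661 CPM in wild type and 3.59 ± 2.57 CPM in the mutants, it was 3.08-fold. No test was made of these ratios. In each of the 4 pairs every mutant library lay above every wild-type library, a direction that the members' own changes largely fix.

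**Figure D2:**
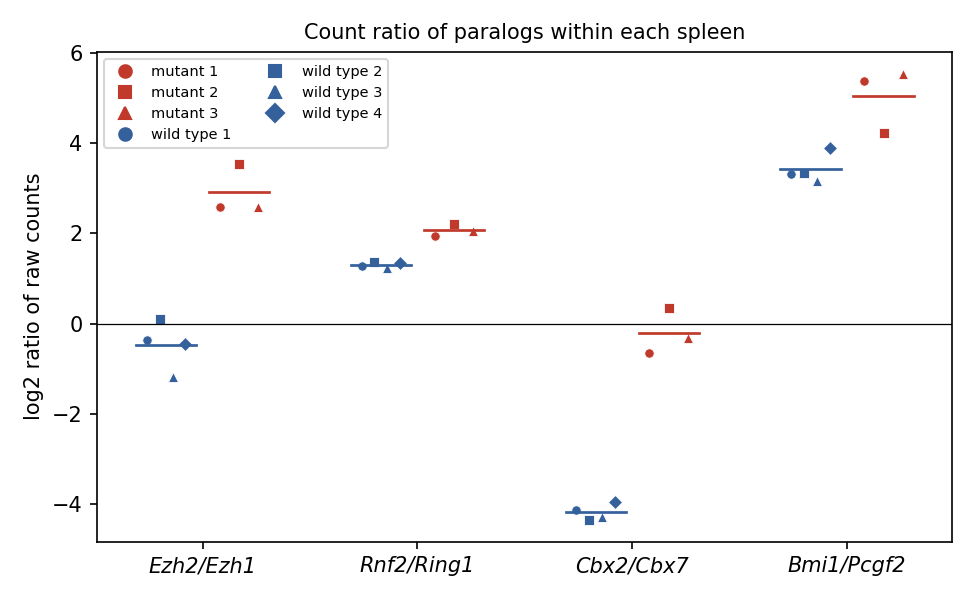
Log2 ratio of raw counts for 4 pairs of Polycomb paralogs within each spleen; red symbols are mutant and blue symbols wild-type libraries, bars are group means. The mutant libraries lie higher for all 4 pairs, by 3.38 for Ezh2/Ezh1 and 3.97 for Cbx2/Cbx7 on the log2 scale.

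To set the genes beside each other, CPM was divided by the length of the merged exons of their protein-coding transcripts in the basic set of GENCODE M21. In wild type the order of these levels per kilobase was Cbx7 (37.7 ± 6.90), Eed (30.5 ± 1.90), Suz12 (29.3 ± 4.27), Ezh2 (23.9 ± 8.495), Rnf2 (22.2 ± 1.44), Bmi1 (16.6 ± 2.33), Jarid2 (14.8 ± 0.617), Ring1 (14.7 ± 1.399), Ezh1 (14.6 ± 1.33) and Cbx2 (1.86 ± 0.236). Of neighbours in that order, only Rnf2 and Bmi1, and Ezh1 and Cbx2, had ranges over the libraries that did not meet. In the mutants the order was Ezh2 (93.6 ± 18.99), Suz12 (51.2 ± 13.5), Eed (41.5 ± 3.71), Bmi1 (27.8 ± 4.82), Rnf2 (24.4 ± 3.24), Cbx7 (11.2 ± 1.23), Jarid2 (10.02 ± 1.12), Ring1 (9.53 ± 0.634), Cbx2 (8.90 ± 2.21) and Ezh1 (5.74 ± 1.09). Cbx7 thus led in wild type and Ezh2 in the mutants. The ranges of neighbours did not meet there between Ezh2 and Suz12, between Eed and Bmi1, between Rnf2 and Cbx7, and between Cbx2 and Ezh1. With the comprehensive transcript set the order of Jarid2, Ring1 and Ezh1 in wild type became Ring1, Ezh1 and Jarid2, and Jarid2 and Ring1 changed places in the mutants, with no other change of rank. The exon lengths come from another annotation than the authors' counting.

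The other subunits and opponents of the complexes were read from 4 lists with 38 genes, all tested. Of these 13 rose (34.2%, beside 28.5% of all genes) and 4 fell (10.5%, beside 28.9%), with a median log2 fold change of 0.25. Among 7 further PRC2 genes 4 rose and 1 fell. Rbbp4 and Rbbp7, histone chaperones that belong to the PRC2 core and also to other complexes, rose by 1.12 (SE 0.19) and 1.31 (SE 0.17) on the log2 scale. Rbbp7 shares 174 bases of its span with Txlng and Rbbp4 shares 1460 bases with Sync, both on the other strand, and the use of strand in counting is not stated. The Polycomb-like accessory proteins, which bring PRC2 to unmethylated CpG sites, split. Phf1 stood at 29.3, 28.6 and 23.1 CPM in mutant spleens, and at 139, 125, 159 and 92.8 CPM in the wild-type ones, with no overlap, and fell by 2.26 (SE 0.22, adjusted p = 2.79e-04, edgeR). Its paralogs Mtf2 (1.90, SE 0.30) and Phf19 (0.96, SE 0.30), named after their values were seen, rose. Mtf2 stood at 150, 363 and 202 CPM in mutant spleens, and at 54.9 to 77.7 CPM in the wild-type ones.

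Most other genes of canonical PRC1 were not called, with 2 of 9 higher and 1 lower, beside 28.5% and 28.9% of all genes. Phc1, a Polyhomeotic protein that lets PRC1 polymerise, rose by 0.87 (SE 0.18), and its paralog Phc3 fell by 0.71 (SE 0.14). Phc2, which had the highest mean over the 7 libraries though Phc3 was higher in wild type, was not called (0.29, SE 0.22). Cbx6, named after its values were seen, rose by 0.86 (SE 0.19), and its span overlaps that of Npcd on the same strand, so its level is uncertain. Cbx8, a further chromobox gene, was not called (-0.53, SE 0.23).

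Of 14 genes of variant PRC1, which lacks chromobox subunits, 5 rose and 2 fell, beside 28.5% and 28.9% of all genes. L3mbtl2, a subunit of the form with Pcgf6 and E2f6, stood at 92.5, 89.9 and 107 CPM in mutant spleens, and at 41.0, 35.4, 39.1 and 31.2 CPM in the wild-type ones, and rose by 1.396 (SE 0.14, adjusted p = 3.31e-04, edgeR). E2f6 (1.20, SE 0.21), Pcgf6 (0.79, SE 0.18), Pcgf3 (0.63, SE 0.16) and Yaf2 (0.54, SE 0.16) made up the rest of those that rose, named after their values were seen. Fbrs fell by 0.65 (SE 0.21) and Auts2 by 1.55 (SE 0.50). Auts2 was scarce, at 1.403 ± 0.261 CPM in wild type and 0.465 ± 0.366 CPM in the mutants. It passed the count filter only through the wild-type group, so its call, included in the counts of genes that fell, is no separate support. Mga, a DNA-binding subunit of the Pcgf6 form and the gene of highest mean over the 7 libraries, was not called (-0.32, SE 0.14). Bcor had a higher mean in the mutants (127 against 123 CPM), but it was above Mga in mutant 1 only.

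Among 8 genes of enzymes that remove the Polycomb marks and of their partners, 2 rose and 0 fell. The shares over all genes were 28.5% and 28.9%. Bap1, the deubiquitinase that acts on histone H2A, rose by 0.66 (SE 0.15) and its partner Asxl1 by 0.63 (SE 0.14). The number lower was 0 by DESeq2 and limma-voom too, and 0 by edgeR at an unadjusted p under 0.05. The demethylases Kdm6a (-0.30, SE 0.32) and Kdm6b (0.30, SE 0.16) were not called, and Kdm6a ranged from 51.5 to 134 CPM among the wild-type libraries alone. Over the 38 genes, 6 fell and 9 rose with library size alone, and 8 rose and 2 fell without wild-type 1 and wild-type 2. Leaving out wild-type 2 or wild-type 3 left 2 that fell.

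**Figure D3:**
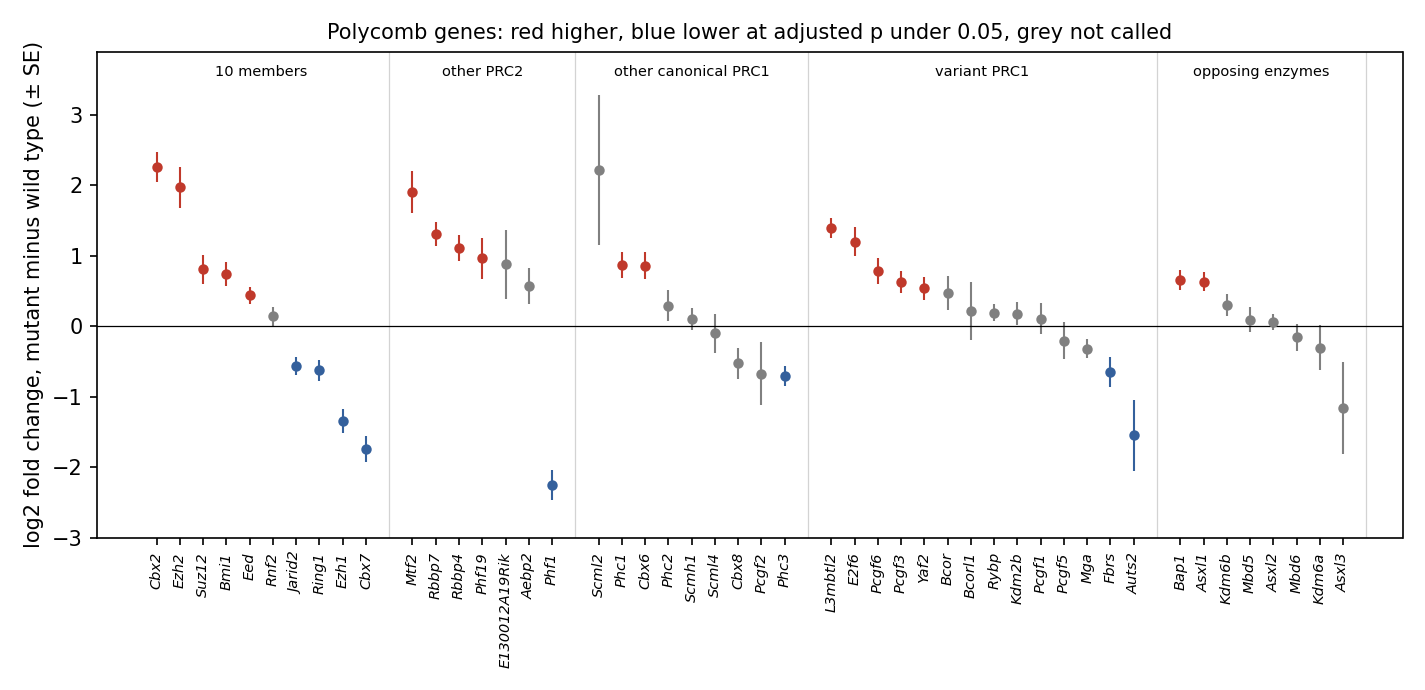
Log2 fold change of mutant against wild type with its SE for the 10 Polycomb genes and 4 lists of related genes, sorted within each list; red points rose and blue points fell at an adjusted p under 0.05, and grey points were not called. In the related lists 13 genes rose (34.2%, beside 28.5% of all genes) and 4 fell (10.5%, beside 28.9%). With library size alone as the scaling, 9 rose and 6 fell. Phf1 has the largest called decrease at -2.26.

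The summed cell division genes, like the members that rose, stood higher in the mutant spleens than in wild type. Of 20 listed cell division genes 17 rose and 0 fell by edgeR (0 lower also at an unadjusted p under 0.05, and by DESeq2 and limma-voom), and their summed level was 8768 to 9730 CPM in mutant spleens, against 1275 to 5371 CPM in wild type. Within wild type that sum was 3556, 5371, 1275 and 1597 CPM in libraries 1 to 4, the same order as for Ezh2. Red cell precursor genes, given below, had that order too, while Cbx2, Suz12, Bmi1 and Eed did not. Per 1000 CPM of the cell division genes, Ezh2 stood at 25.2 to 33.1 CPM in mutant spleens, against 18.2 to 35.3 CPM in wild type. On that scale the groups overlapped. Cbx2 also overlapped on that scale, at 2.98 to 4.44 in the mutants and 1.19 to 6.13 in wild type. Among the wild-type spleens Cbx2 lay between 6.22 and 7.88 CPM, over the range of sums just given. Eed stood lower in the mutants per 1000 CPM of cell division genes (8.73 to 9.68 against 11.2 to 53.5). The sum was higher in every mutant, so a gene that rose by less, or not at all, tends to come out lower. Rnf2, not called in CPM, did so too (7.72 to 9.73 against 12.6 to 61.6). The wild-type sums also spread widely, so neither an overlap nor a gap on this scale is read as a result about a gene. On that scale Bmi1 stood at 9.96 to 12.6 against 10.2 to 46.4, and Suz12 at 20.2 to 29.8 against 25.5 to 89.4.

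**Figure D4:**
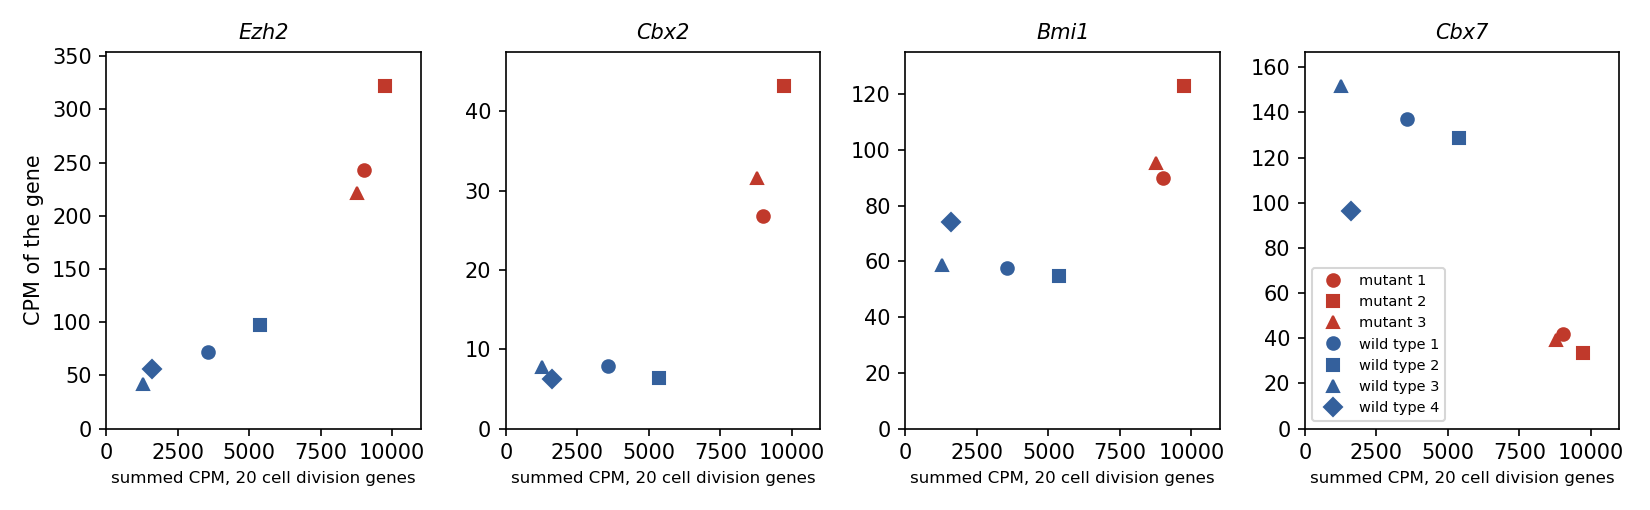
CPM of Ezh2, Cbx2, Bmi1 and Cbx7 in each spleen against the summed CPM of 20 cell division genes; red symbols are mutant and blue symbols wild-type libraries. Ezh2 climbs with the sum also among the wild-type spleens, from 41.9 to 97.6 CPM, while Cbx2 stays between 6.22 and 7.88 CPM there.

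Cell type markers also moved with the groups. Genes of developing T cells summed to 3348 to 6179 CPM in mutant spleens, against 614 to 804 CPM in wild type, with 10 of 12 higher and 1 lower, and B cell genes were down as given above. Genes of mature and regulatory T cells fell in 5 of 8 and summed to 528 to 684 CPM in mutant spleens, against 968 to 1130 CPM in wild type. Monocyte and macrophage genes fell in 7 of 10, NK cell genes in 6 of 7 and neutrophil genes in 3 of 10. Over all genes tested 28.5% rose and 28.9% fell. Of 10 red cell precursor genes 0 were called by edgeR, DESeq2 or limma-voom (at an unadjusted p under 0.05, 0 by edgeR and 1 by DESeq2), and their sum ranged from 928 to 11662 CPM in wild type and from 2214 to 14748 CPM in the mutants. The red cell sum in wild types 1 to 4 was 5571, 11662, 928 and 1023 CPM, the same order as for Ezh2. No listed marker of these cell types had 0 counts in every library. The part of cell division and of cell type content in the Polycomb changes was not tested.

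Likeness of pattern was measured as the root mean square difference of log2 CPM, each gene relative to its wild-type mean, over the 7 libraries and among genes averaging 5 CPM or more (11312 compared with each member). Genes with a clone name for a symbol counted in the ranks below but were passed over in naming the nearest genes. For Cbx7 the nearest genes were Sipa1 (0.056), Ptk2b (0.13) and Dnmbp (0.13). For Cbx2 they were Nck2 (0.18), Tacc2 (0.18) and Nhp2l1 (0.18). For Ezh2, added after its values were seen, they were Rad54b (0.097), Prim1 (0.10) and Neu3 (0.10). The nearest other member of Cbx7 was Ezh1 (0.27, rank 101), and that of Cbx2 was Ezh2 (0.44, rank 310). The closest pair of members was Jarid2 with Ring1 (0.11), followed by Suz12 with Bmi1 (0.19) and Eed with Rnf2 (0.21). Among all genes compared with the first gene of each pair, the second ranked 35, 54 and 1011. No pair of members was each other's nearest gene.

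Genes that Polycomb proteins are known to silence were read in the same libraries. Of 19 developmental regulators 5 had 0 counts in all libraries (Sox1, Zic1, Hand1, Cdx2 and Hoxd13), where the limit a count of 0 allows, 3 counts, is 0.0279 CPM for the pooled mutants and 0.017 CPM for the pooled wild types. These limits cover counting error only, since PCR copies cannot be told from separate molecules here. Another 10 were too scarce to test. The 4 tested, Gata6, Sox17, Wt1 and Nkx2-5, are known also in stromal, endothelial or mesothelial cells. Gata6 (-1.50, SE 0.29), Sox17 (-1.89, SE 0.32) and Wt1 (-1.30, SE 0.35) fell, and Nkx2-5 was not called (-0.92, SE 0.39). Stroma and endothelium markers fell in 6 of 9 cases and rose in 1, with sums of 386 to 639 CPM in mutant spleens, against 794 to 1131 CPM in wild type, and their part in these values was not tested.

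Of 10 targets known in blood cells 7 were tested, with 2 higher and 4 lower, beside 28.5% and 28.9% of all genes. Cdkn2a, the locus of cell cycle inhibitors known as a main target of Bmi1, had 304, 182 and 59 counts in the mutants (6.27, 6.42 and 1.92 CPM) and 0.318 to 0.62 CPM in wild type. All mutants were above all wild types, mutant 3 by the least. Of the PRC1 members, Bmi1 and Cbx2 were higher in these mutants too, Cbx7 and Ring1 were lower and Rnf2 was not called. Their part in the level of Cdkn2a was not tested. Cdkn2a rose by 3.30 (SE 0.49, adjusted p = 0.00111, edgeR), while its neighbour Cdkn2b was not called (0.50, SE 0.60). Igf2bp3, an RNA-binding protein of fetal blood stem cells, stood at 39.0, 82.1 and 92.9 CPM in mutant spleens, and at 0.813, 0.703, 1.31 and 3.09 CPM in the wild-type ones. It rose by 5.54 (SE 0.60, adjusted p = 3.81e-04, edgeR). The blood stem cell regulators Meis1 (-1.90, SE 0.34) and Hoxa5 (-1.23, SE 0.28) fell. Meis1 stood at 9.61, 9.52, 11.3 and 13.2 CPM in wild types 1 to 4. Stroma and endothelium sums had the same order there (832, 794, 982 and 1131 CPM), and Hoxa5 did not. The part of those cells in these values was not tested. Hoxa7 and Hoxa9, at 0.617 ± 0.194 and 0.314 ± 0.153 CPM in wild type and 0.0749 ± 0.0822 and 0.0589 ± 0.0156 CPM in the mutants, fell too. Scarce genes such as these pass the count filter only through the group in which they are higher, so their calls are no separate support.

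**Figure D5:**
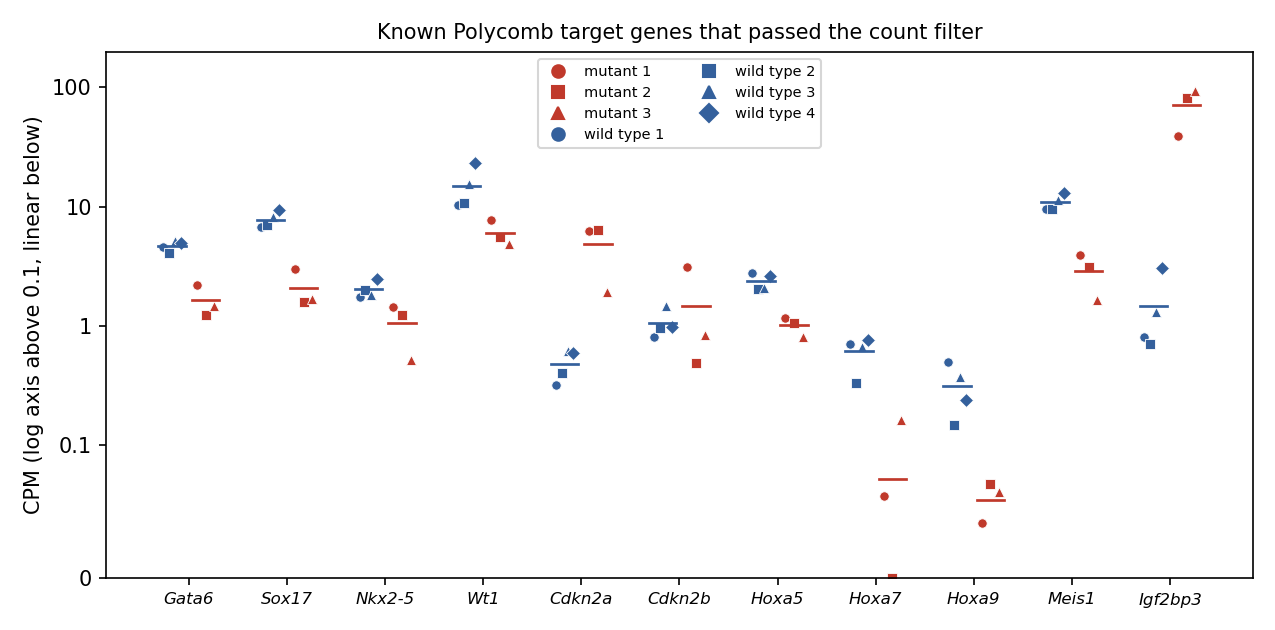
CPM of the 11 known Polycomb target genes that passed the count filter, on an axis that is logarithmic above 0.1 and linear below; red symbols are mutant and blue symbols wild-type libraries, bars are group means. Cdkn2a and Igf2bp3 lie higher in every mutant library, and Meis1, Gata6, Sox17, Wt1 and 3 Hoxa genes lower.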

How the data were processed

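Total RNA of 7 spleens was sequenced, 3 mutant and 4 wild type, and samples were grouped by their titles. Per the submitters' processing notes, the tools were TopHat2 2.0.12, bcl2fastq 2.17.1.14, edgeR and featureCounts (Subread 1.4.6), on mm10. For settings and the use of strand in counting: not given in the sources used here. Raw counts for each gene were deposited by the authors, and the authors deposited a second table of CPM, taken here as a score because its columns sum to 849108 to 1164022 and not to 1 fixed total. Deposited start positions lay 1 base below the RefSeq start for 13504 of 22550 genes matched by symbol, so 1 was added to them.

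Counts were filtered with filterByExpr, scaled by TMM and tested with edgeR 4.0.16 (R 4.3.3), with group as the only term and Benjamini-Hochberg adjustment over all genes. Genes were called at an adjusted p under 0.05. Each SE was taken from the fold change on the log2 scale over the square root of the F statistic. The procedure was also tested on simulated data in which far fewer genes changed than were called here, so its adjusted threshold was stricter. Most of the smaller and some of the larger changes were missed there, so a gene that was not called is not shown to be unchanged. Alternatives were RLE factors, library size alone, globin genes removed, other filters, DESeq2 1.42.0, limma-voom (limma 3.58.1), limma on log2(deposited CPM + 1) and with 0.1 added instead, a stricter threshold, the replicate number as a block, and each library left out. Named genes were all members and, per list of related genes, the called gene of smallest p in each direction, the largest called change and the gene of highest mean CPM over the libraries. All tested target genes were named as well. Related genes outside this rule are mostly given as counts only, and 1 gene was left out of these lists and is not reported here. The members and lists were chosen with earlier results of these data known. Promoter windows came from RefSeq (GRCm38.p6), with a window for 9 of 10 members and none for Cbx2.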

Additional observations from a re-analysis of the deposited data

Results flagged for a closer look

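In the wild-type group of 4 spleens, 1 library stood apart for 2 genes among 52 measures checked (10 members, 4 paralog ratios and 38 related genes). Chance marks about 1 in 20 groups. In both, the gap to the nearest library took up most of the group's range (0.846 and 0.885 of it). Pcgf3, a subunit of variant PRC1, stood at 25.0 CPM in wild-type 3, below the next library at 30.3 CPM. Mbd6, a partner of the deubiquitinase BAP1, stood at 78.7 CPM in wild-type 4, below the next library at 115 CPM. None of the 10 members was marked. The group of 3 mutants is too small for this check.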

How the results depend on the processing

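Of 180 values for the 10 members under 18 alternatives, 165 kept their direction and their side of the threshold, 13 lost the call, 1 gained it and 1 changed sign. Counts were stable to within 1.5 times except as follows. With library size alone 2 members rose, and Rnf2 changed sign to -0.11. At an adjusted p under 0.01, 3 members rose, 2 of the related genes fell and 2924 of all genes fell. With the replicate block 2 members fell and 8 related genes rose. Deviations of same-numbered libraries correlated at 0.042, -0.19 and 0.10, so the numbers were not taken to pair the spleens. Without wild-type 1 and wild-type 2 together, chosen after seeing the data, 2 members rose and 2 fell, and 8 related genes rose and 2 fell. Leaving out 1 library gave 4 to 6 members that rose and 4 that fell, 11 to 16 related genes that rose and 2 to 4 that fell, 3635 to 5010 of all genes that rose and 3674 to 4811 that fell. The paralog shifts stayed within 3.06 to 3.72 (Ezh2/Ezh1), 0.69 to 0.82 (Rnf2/Ring1), 3.69 to 4.19 (Cbx2/Cbx7) and 1.38 to 2.03 (Bmi1/Pcgf2) on the log2 scale. The cause of these differences was not tested.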

Other observations

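Several scarce genes of the lists were high in a single mutant spleen, and they are named after their values were seen. Pax6, a developmental regulator, had 249 counts in mutant 1 against 0 and 3 in the other mutants and 0 to 2 in wild type. Hmga2, a chromatin protein of fetal stem cells, had 264 counts in mutant 1 against 0 and 5 in the other mutants and 2 to 8 in wild type. Lhx2, a homeobox gene, had 148 counts in mutant 2 against 23 and 3 in the others and 3 to 17 in wild type. Scml2, a Polycomb protein of the SCM family, stood at 16.0 CPM in mutant 1, 0.67 and 0.944 CPM in the others and 0.465 to 1.66 CPM in wild type, and was not called (2.22, SE 1.06, adjusted p = 0.109, edgeR). Pax6, Hmga2 and Lhx2 were too scarce across libraries to be tested.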
